A study of Drosophila melanogaster with 46 samples.

Results

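The sperm leucyl aminopeptidases (S-Lap genes) of Drosophila melanogaster were taken as every spot whose gene symbol in the platform's probe-to-gene table starts with S-Lap. The rule found 8 spots, which are 4 elements (a pair of duplicate spots each) for 4 genes, S-Lap2, S-Lap5, S-Lap7 and S-Lap8, among 10850 genes named on the arrays. RefSeq annotation of the Release 6 assembly has 7 genes with such symbols. No element was named for S-Lap1, S-Lap3, S-Lap4 or the related gene loopin-1 alone, so these were not analysed here. S-Lap2 lies on chromosome arm 3L, and S-Lap5, S-Lap7 and S-Lap8 lie on 2R.

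Leucyl aminopeptidases of the M17 family are metal-dependent enzymes that remove amino acids from the amino terminus of peptides. In Drosophila, the S-Lap proteins are among the most abundant proteins of sperm, and several have lost residues needed for catalysis. They have been placed in the paracrystalline material that fills the mitochondrial derivatives, the fused mitochondria that run along the sperm tail. Genes for sperm tail proteins are transcribed in spermatocytes, the germ cells of the testis before meiosis.

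Transcript levels were compared on 46 2-colour spotted arrays, each carrying the RNAs of 2 sources, and 44 of them fall into 15 comparisons. The reference flies were of strain y[1]w[67c] (written y[1]w[1] in a label field of some arrays) and gave whole females, whole males, dissected ovaries and testes, and the gonadectomized carcasses of each sex. The genotype w[67c]/w[67c];tra2[B]/TRIX gave the XX tra2 flies. The XY tra2 flies, from that cross too, were w[67c]/BsY;tra2[B]/TRIX. XX dsx flies were +/+;dsx[M+R45]/dsx[swe]. The tudor males and females were tud[1] bw[1]sp[1] offspring of mothers of that genotype, and the labels describe them as lacking a germline. Both tra2 and dsx belong to the somatic sex determination pathway. XX flies without tra2 function develop a male soma. All flies were adults of 3 to 5 days kept at 25 C. Genetic background differs along with the mutation wherever a mutant was set against y[1]w[67c] flies, and these cannot be told apart.

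Arrays are named here by their number and letter in the labels. There were 4 arrays for each of 7 comparisons and 2 arrays for each of 8. Between 7994 and 14881 of 15732 elements were present per array. The number of arrays limits the precision, and the labels do not say whether repeats came from separate extracts, so the p-values measure a spread between arrays that may be technical. Values are log2 ratios of the first RNA over the second, each array centred on its median. The base of the logarithm is not stated. It was taken as 2, so that 1 unit is a doubling, and a natural log is not excluded. The direction is likely rather than stated. It rests on taking channel 1 over channel 2, which places the yolk protein genes (Yp1, Yp2, Yp3) on the female side of 4 of 4 whole-fly arrays and betaTub85D, Mst87F and dj on the testis side of 4 of 4 gonad arrays. A ratio is called when limma's Benjamini-Hochberg adjusted p over all elements tested in that comparison is below 0.05. With each SE, n counts the arrays of the ratio, while the variance behind the SE is pooled over all comparisons. RNA was taken from whole flies or organs, so fewer cells of a type and less RNA per cell cannot be told apart.

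Whole males had more transcript of every S-Lap gene than whole females. S-Lap7 read 4.28, 2.69, 3.48 and 3.49 on the 4 arrays, and S-Lap8 read 3.85, 2.82, 3.18 and 3.04. S-Lap2 read 2.47, 2.23, 1.55 and 1.63, and S-Lap5 read 1.74, 1.44, 1.78 and 0.89. All 16 values were above 0, and on each array both S-Lap7 and S-Lap8 exceeded both S-Lap2 and S-Lap5. The fitted log2 ratios were 3.48 ± 0.20 for S-Lap7 (SE, n = 4 arrays; limma, adjusted p = 1.89e-13) and 3.22 ± 0.21 for S-Lap8 (limma, adjusted p = 5.16e-12). For S-Lap2 the ratio was 1.97 ± 0.16 (limma, adjusted p = 1.79e-09) and for S-Lap5 1.46 ± 0.16 (limma, adjusted p = 7.71e-08). Thus 4 of 4 genes were called higher in males, where 26.5% of all elements tested were. By size, S-Lap7 ranked 12 and S-Lap8 20 from the top among 12982 elements, while S-Lap2 ranked 249 and S-Lap5 504. Genes of other male tissues were higher in whole males too, with 13 of 13 accessory gland genes (a male reproductive gland that makes seminal proteins; median 2.09) and 3 of 3 ejaculatory duct and bulb genes (median 2.19) called. Their part in the S-Lap ratios was not tested.

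**Figure D1:**
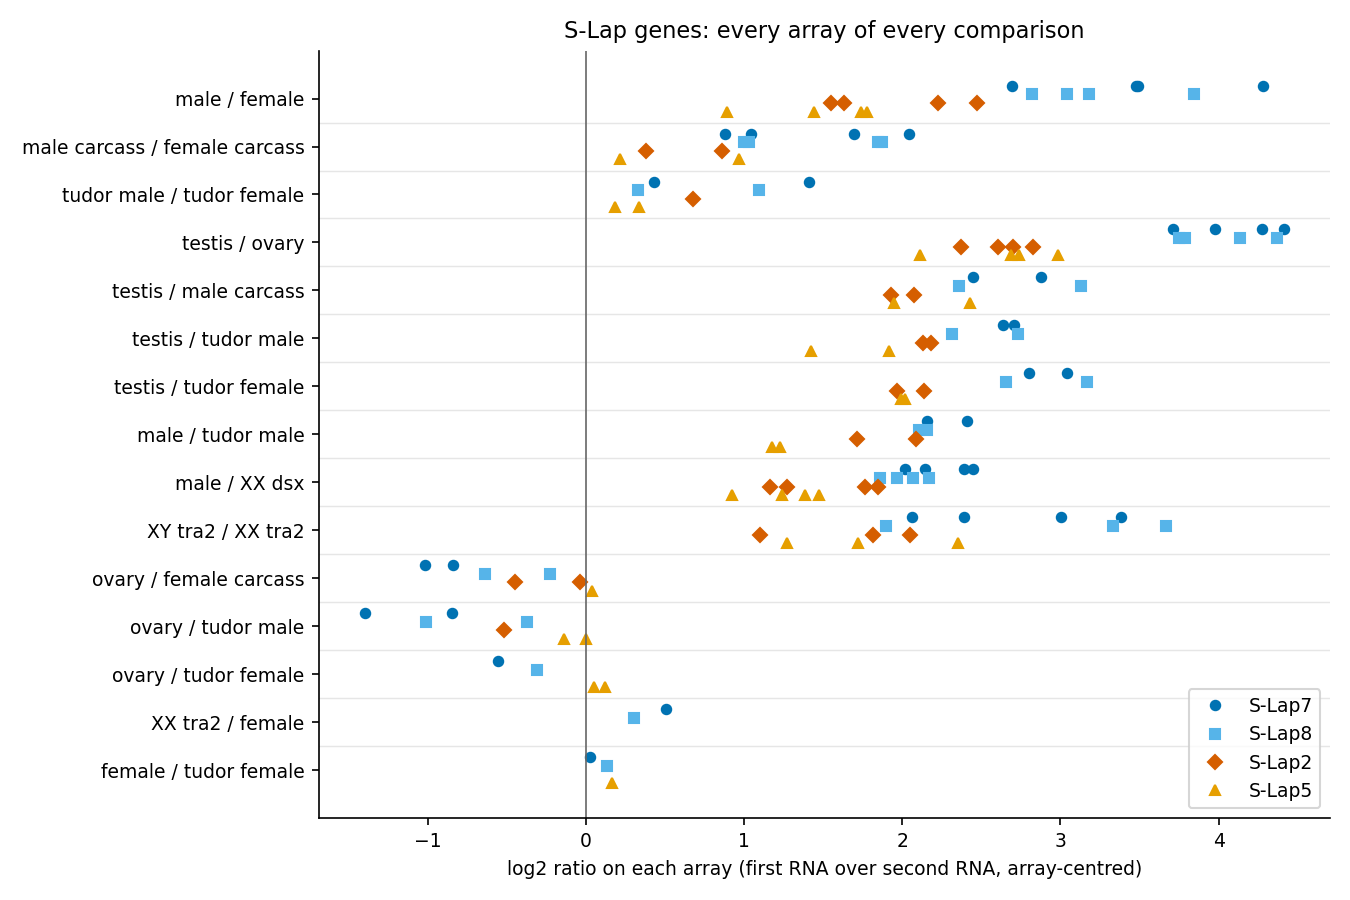
Array-centred log2 ratio (horizontal axis) of the 4 S-Lap genes on every array with a value, in the 15 comparisons (vertical axis, first RNA / second RNA). In the 8 comparisons in which all 4 genes were called higher in the first RNA, the 93 values are all above 0. These comparisons were picked by those calls, so the shared sign follows largely from the choice. XX tra2 / female holds 2 points because 2 of 16 values were present.

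The testis had more S-Lap transcript than the ovary. S-Lap7 read 4.28, 3.71, 4.41 and 3.98 on the 4 arrays, and S-Lap8 read 4.14, 3.75, 4.37 and 3.78. S-Lap2 lay between 2.37 and 2.82, and S-Lap5 between 2.11 and 2.98. The arrays of the upper pair did not overlap those of the lower pair. The fitted ratios were 4.09 ± 0.20 for S-Lap7 and 4.01 ± 0.21 for S-Lap8, and 2.63 ± 0.16 for each of S-Lap2 and S-Lap5 (SE, n = 4 arrays; limma, adjusted p from 1.65e-15 for S-Lap7 to 5.55e-12 for S-Lap2). Of the 4 genes, 4 were called higher in testis, against 30.9% of all elements tested. On a linear scale the fitted ratio of S-Lap7 was 17.1-fold and that of S-Lap5 6.19-fold. Scaling all arrays to the same spread gave 2.28, 2.24, 1.46 and 1.45 for S-Lap7, S-Lap8, S-Lap2 and S-Lap5, all still called.

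Against the male carcass, the fitted testis ratio of each gene was smaller than against ovary, a difference that was not tested. S-Lap7 read 2.88 and 2.45 on the 2 arrays, S-Lap8 3.13 and 2.36, S-Lap5 2.43 and 1.95, and S-Lap2 1.93 and 2.07. The fitted ratios were 2.66 ± 0.28, 2.75 ± 0.30, 2.19 ± 0.23 and 2.00 ± 0.22 in that order (SE, n = 2 arrays), and 4 of 4 genes were called higher in testis, against 25.4% of all elements. After scaling, S-Lap8 was at 1.82, S-Lap5 at 1.46 and S-Lap2 at 1.35. The scaled ratio of S-Lap5 was no smaller than over ovary, and the scaled ratio of S-Lap2 over ovary was 1.46.

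Testis also had more S-Lap transcript than germline-less flies of either sex. Over tudor males, S-Lap7 was 2.71 and 2.64 and S-Lap8 2.73 and 2.32 on the 2 arrays, and the fitted ratios were 2.84 ± 0.29 and 2.65 ± 0.31 (SE, n = 2 arrays), with S-Lap2 at 2.17 ± 0.23 and S-Lap5 at 1.74 ± 0.24. Over tudor females, S-Lap7 was 3.04 and 2.80 and S-Lap8 3.17 and 2.66, and the fitted ratios were 3.09 ± 0.29 for S-Lap7, 3.04 ± 0.31 for S-Lap8, 2.08 ± 0.24 for S-Lap5 and 2.07 ± 0.23 for S-Lap2. In each of these comparisons 4 of 4 genes were called higher in testis, where 14.9% of all elements were called higher over tudor males and 17.9% over tudor females. Over tudor males that is 2005 elements, and 815 without array 18a. Both comparisons used arrays of a single dye orientation, as did tudor males over tudor females and ovary over tudor males or tudor females. The dye coefficient that corrects all of these came from the other arrays. None of the 4 S-Lap genes had a called dye coefficient (0.01 to 0.17, channel 1 over channel 2).

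Accessory gland transcripts moved with testis too. Of 13 accessory gland genes tested, 13 were called higher in testis than in ovary (median 2.72), and 12 of 12 higher in testis than in male carcass (median 1.16). In tudor males 13 of 13 gland genes were called higher than in tudor females (median 2.16). Over tudor males, 1 of 13 was called higher in testis (median 0.31), beside 4 of 4 S-Lap genes. Over tudor females, 12 of 13 were called higher in testis (median 1.91). The part of gland RNA in the testis ratios was not tested.

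With the gonads removed, S-Lap ratios between the sexes were smaller, and those of S-Lap7 and S-Lap8 were still called. In male carcass over female carcass, S-Lap7 read 1.70, 0.88, 2.04 and 1.04 and S-Lap8 read 1.85, 1.03, 1.87 and 1.00. The larger values of both genes came from arrays 3a and 4a, and the smaller from 3b and 4b. Only 3a and 4a held values for the other genes, with 0.86 and 0.38 for S-Lap2 and 0.97 and 0.22 for S-Lap5. Fitted ratios were 1.42 ± 0.20 for S-Lap7 (SE, n = 4 arrays; limma, adjusted p = 1.24e-05) and 1.44 ± 0.21 for S-Lap8 (limma, adjusted p = 2.95e-05). They were 0.62 ± 0.22 for S-Lap2 (SE, n = 2 arrays; limma, adjusted p = 0.0668) and 0.59 ± 0.23 for S-Lap5 (limma, adjusted p = 0.0812). The 2 called genes of 4 stand beside 6.53% of all elements called higher in male carcass. Fitted on the carcass arrays alone, S-Lap7 had adjusted p = 0.0699 and S-Lap8 adjusted p = 0.0626 (limma), at the same ratios.

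Transcripts of both gonads differed between the carcasses as well. Of 16 sperm tail genes tested, 11 were called higher in male carcass (median 0.67), among them dj, needed for sperm individualisation, at 1.33 and Mst87F, which encodes a protein of the sperm tail, at 1.08. Of 12 ovary genes, 9 were called lower in male carcass (median -1.12), and of 13 accessory gland genes 12 were called higher (median 1.28). Over all elements 6.53% were called higher in male carcass and 7.6% lower. Whether gonad RNA was left in the carcasses was not tested.

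The difference between the sex ratios of whole flies and carcasses was tested directly. It was 2.07 ± 0.28 for S-Lap7 (SE, n = 8 arrays; limma, adjusted p = 6.07e-06), 1.79 ± 0.30 for S-Lap8 (limma, adjusted p = 8.29e-05), 1.35 ± 0.27 for S-Lap2 (n = 6 arrays; limma, adjusted p = 0.000931) and 0.87 ± 0.28 for S-Lap5 (n = 6 arrays; limma, adjusted p = 0.019). All 4 were called, against 17.7% of all elements called higher in whole flies. Of the other male tissue genes, 8 of 13 accessory gland genes (median 0.75) and 2 of 3 ejaculatory duct and bulb genes (median 0.86) were called higher there as well. No difference was called after arrays were scaled to the same spread, which gave 0.65, 0.43, 0.62 and 0.26 in the same order. Whole-fly arrays had wider spreads over all elements (0.437 to 0.632 by the median absolute deviation) than carcass arrays (0.217 to 0.435). For S-Lap5 the call was also lost on the arrays of both comparisons alone (limma, adjusted p = 0.087) and without array 1a (0.74; limma, adjusted p = 0.063).

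In germline-less flies no S-Lap gene was called between the sexes. In tudor males over tudor females, S-Lap7 read 1.41 and 0.43 on the 2 arrays, S-Lap8 1.10 and 0.33, and S-Lap5 0.34 and 0.19, while S-Lap2 had a value on 1 array only, 0.68. Each value was above 0, and the values of array 17a exceeded those of 17b for each gene with both. These 2 arrays share a dye orientation, so their dye correction came from the other arrays. After it the ratios were 0.75 ± 0.29 for S-Lap7 (SE, n = 2 arrays; limma, adjusted p = 0.584), 0.58 ± 0.31 for S-Lap8 and 0.19 ± 0.24 for S-Lap5. By limma 0 of 3 genes tested were called, and over all elements 0.808% were called higher in tudor males (1.03% in either direction, 4.34% at an unadjusted p below 0.05). Without array 17a the ratios of S-Lap7, S-Lap8 and S-Lap5 were 0.26, 0.20 and 0.11, and without 17b they were 1.24, 0.97 and 0.26. The count of all elements called higher was 93 with both arrays, 38 without 17a and 65 without 17b. Scaling the arrays to the same spread gave 2.40 for S-Lap7, 1.91 for S-Lap8 and 0.70 for S-Lap5, all called (limma, adjusted p = 0.000364, 0.00158 and 0.0325). Before scaling, these 2 arrays each had a spread of 0.126 over all elements, the narrowest of the 44.

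The sex ratio of whole flies exceeded that of tudor flies by 2.73 ± 0.35 for S-Lap7 (SE, n = 6 arrays; limma, adjusted p = 3.87e-06), 2.64 ± 0.37 for S-Lap8 (limma, adjusted p = 1.85e-05) and 1.28 ± 0.28 for S-Lap5 (limma, adjusted p = 0.00245). S-Lap2 was not tested. The 3 called genes of 3 stand beside 11.7% of all elements called higher in whole flies. Scaling the arrays to the same spread took the differences to -0.044, 0.28 and 0.30, none called. On the arrays of both comparisons alone the differences were 2.56, 2.40 and 1.07, with limma's adjusted p = 0.0856, 0.0506 and 0.132.

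**Figure D2:**
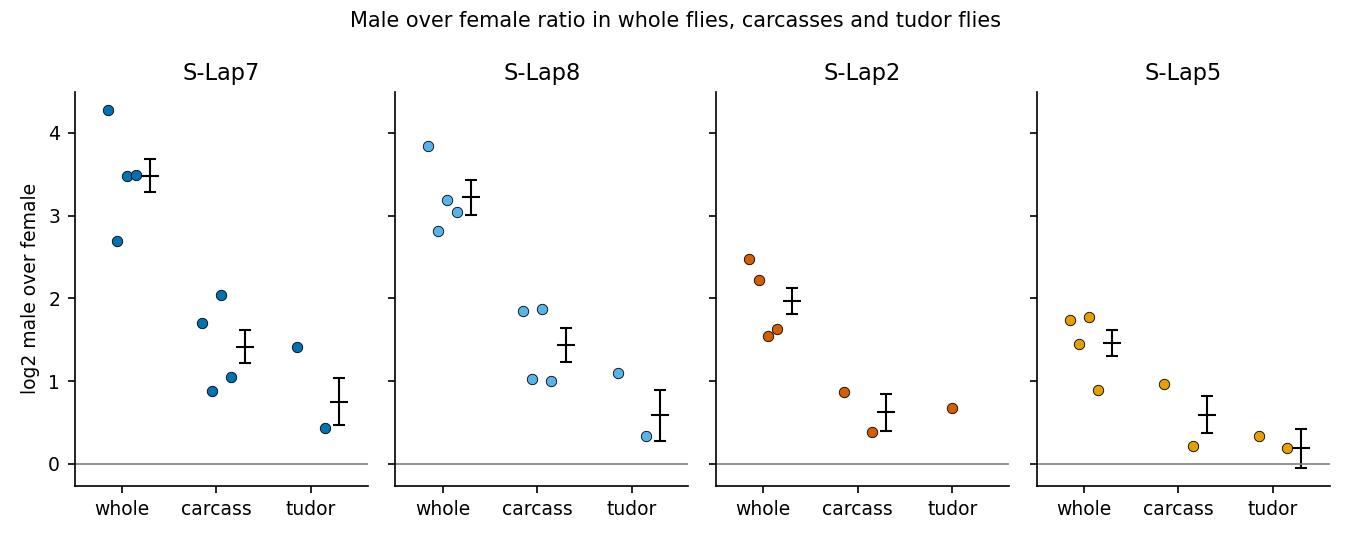
Log2 ratio of male over female RNA for each S-Lap gene (vertical axis) in whole flies, carcasses and germline-less tudor flies. Coloured points are single arrays, and black bars are the fitted ratio ± SE, drawn where 2 or more arrays held a value. For S-Lap7 the fitted ratio was 3.48 in whole flies, 1.42 in carcasses and 0.75 in tudor flies.

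Whole males were also set directly against tudor males, with both dye orientations. S-Lap7 read 2.16 and 2.41, S-Lap8 2.11 and 2.16, S-Lap2 1.72 and 2.09, and S-Lap5 1.18 and 1.23. The values of S-Lap5 lay below those of the other 3 genes on both arrays. Fitted ratios were 2.28 ± 0.28, 2.13 ± 0.30, 1.90 ± 0.22 and 1.21 ± 0.23 (SE, n = 2 arrays; limma, adjusted p from 2.48e-06 for S-Lap7 to 0.000864 for S-Lap5). Of the 4 genes, 4 were called higher in males with a germline, where 5.58% of all elements were. Scaling the arrays to the same spread gave 3.88, 3.65, 3.20 and 2.06. The count of all elements called higher was 741 with both arrays, 362 without array 22 and 339 without array 23. Without array 22 the ratio of S-Lap5 was 1.15 and no longer called (limma, adjusted p = 0.0632). In this comparison 15 of 18 sperm tail genes were called higher (median 1.57), and 0 of 13 accessory gland genes were called higher and 2 lower (median -0.14). Over all elements 1.04% were called lower.

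**Figure D3:**
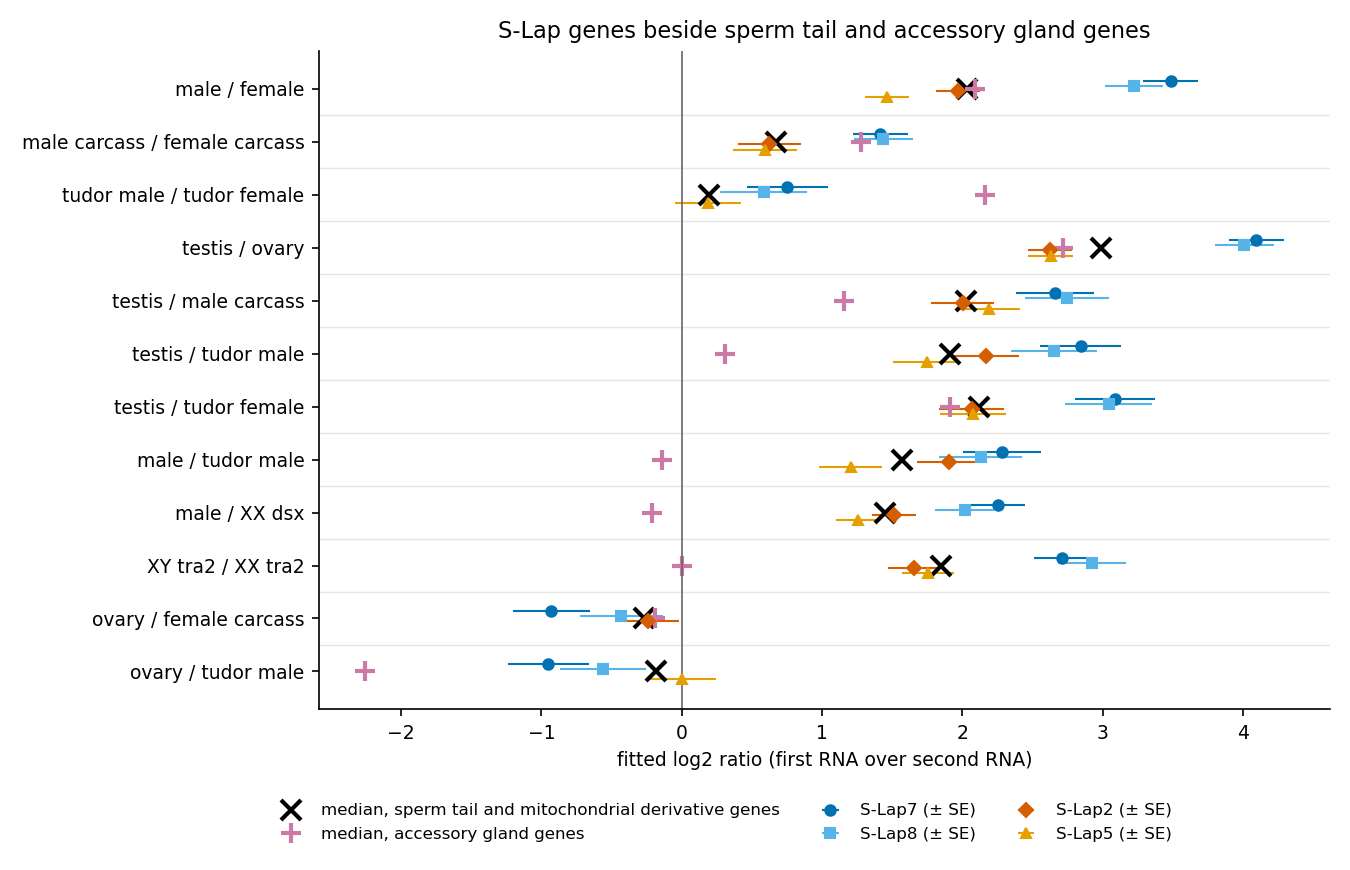
Fitted log2 ratio ± SE (horizontal axis) of each S-Lap gene in the 12 comparisons where 2 or more of them were tested, with the median of the sperm tail and mitochondrial derivative genes (black crosses) and of the accessory gland genes (pink plus signs). In male / tudor male the accessory gland median was -0.14 and the sperm tail median 1.57, while the S-Lap ratios ran from 1.21 to 2.28.

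Males had more S-Lap transcript than XX dsx flies. Males over XX dsx flies read 2.45, 2.39, 2.15 and 2.02 for S-Lap7 and 2.17, 1.86, 2.07 and 1.97 for S-Lap8. S-Lap2 lay between 1.16 and 1.85, and S-Lap5 between 0.93 and 1.47. The fitted ratios were 2.25 ± 0.20, 2.02 ± 0.21, 1.51 ± 0.16 and 1.26 ± 0.16 (SE, n = 4 arrays), and 4 of 4 genes were called higher in males, against 13.6% of all elements. Of 13 accessory gland genes, 0 were called higher in males and 3 lower (median -0.21). Of 3 ejaculatory duct and bulb genes 2 were called lower (median -0.81), as were 2 of 3 yolk genes (median -1.14). Over all elements 9.72% were called lower in males. Of 20 sperm tail genes, 17 were called higher in males (median 1.45).

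XY tra2 flies had more S-Lap transcript than XX tra2 flies of the same cross. S-Lap7 read 2.39, 2.06, 3.38 and 3.00 on the 4 arrays. S-Lap8 read 1.90, 3.67 and 3.33, S-Lap5 1.27, 2.35 and 1.72, and S-Lap2 1.10, 2.05 and 1.82 on 3 arrays each. The larger values were those of arrays 16a and 16b, and the smaller those of the opposite dye orientation. Fitted ratios were 2.71 ± 0.20 for S-Lap7 (SE, n = 4 arrays), 2.92 ± 0.24 for S-Lap8, 1.76 ± 0.19 for S-Lap5 and 1.65 ± 0.18 for S-Lap2 (n = 3 arrays each). The SD over these arrays themselves was 0.60 for S-Lap7, 0.94 for S-Lap8, 0.54 for S-Lap5 and 0.49 for S-Lap2. All 4 were called higher in XY flies, against 14.1% of all elements. Array 15b, on which only S-Lap7 was present, stood apart from its dye-swapped partners, with a correlation across elements of 0.034 to 0.215. Without it, the call of S-Lap7 stayed. Accessory gland genes showed 0 of 13 called in either direction (median 0.002), where 17.8% of all elements were. Of 19 sperm tail genes, 16 were called higher in XY flies (median 1.85).

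When XX tra2 flies or tudor females were compared with whole females, most S-Lap values were absent. In XX tra2 over whole females, 2 of 16 possible S-Lap values were present (12.5%, against 72.8% of values over all elements), both on array 12a, at 0.51 for S-Lap7 and 0.30 for S-Lap8. In females over tudor females, 3 of 8 were present (37.5%, against 77.5%), at 0.17 for S-Lap5, 0.03 for S-Lap7 and 0.14 for S-Lap8. No gene was tested in either. In the 7 comparisons with testis or whole male RNA as the first RNA, every S-Lap value was present. The authors' filter behind absent values is not given in the sources used here. In XX tra2 over females, sperm tail genes had 38.8% of their possible values, and accessory gland genes 98.1%.

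**Figure D4:**
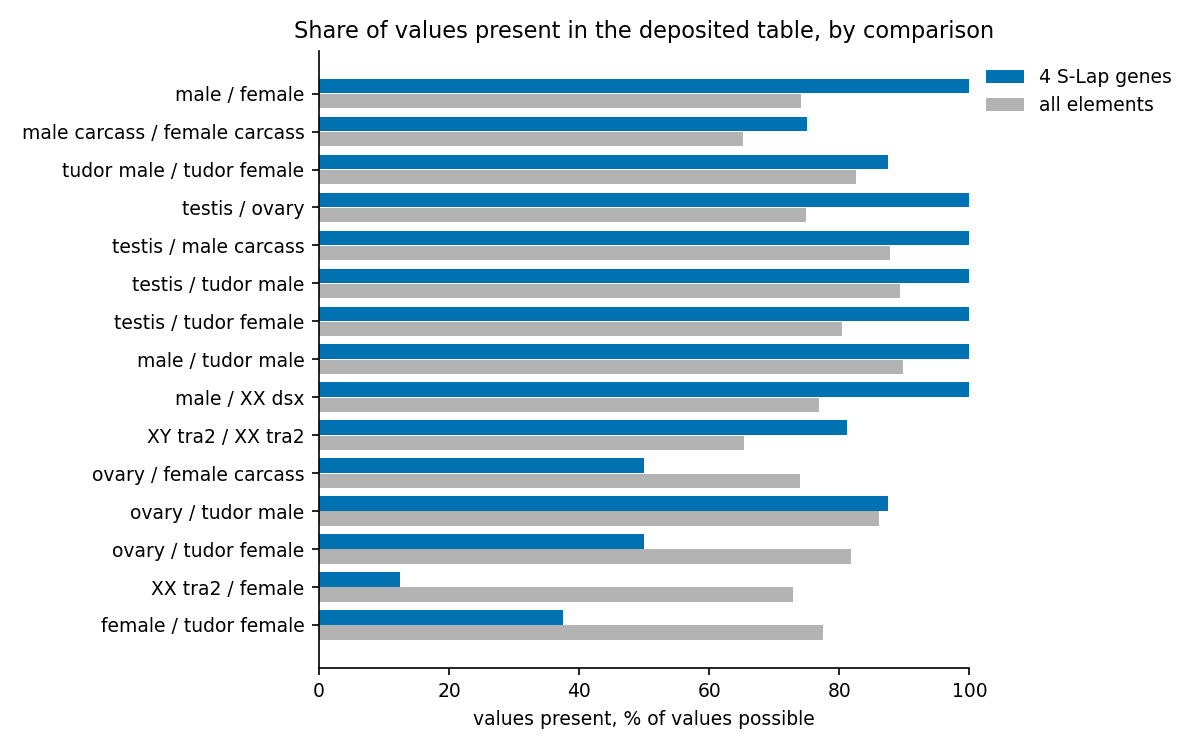
Values present as a percentage of values possible (horizontal axis) in each comparison (vertical axis), for the 4 S-Lap genes (blue) and all elements (grey). S-Lap values were complete in male / female and in every comparison of testis, and 12.5% were present in XX tra2 / female.

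S-Lap7 was called lower in ovary than in female carcass and tudor males. In ovary over female carcass S-Lap7 read -0.84 and -1.02 on arrays 7a and 8a, with a fitted ratio of -0.93 ± 0.28 (SE, n = 2 arrays; limma, adjusted p = 0.00731). S-Lap8 was at -0.43 ± 0.30 (limma, adjusted p = 0.247) and S-Lap2 at -0.24 ± 0.22 (limma, adjusted p = 0.407), and S-Lap5 had 1 value, 0.04. By limma 1 of 3 genes tested was called lower, against 24.8% of all elements. The fit left out the first-subarray values of arrays 7b and 8b, which ran opposite to 7a and 8a (correlation across elements -0.868 to -0.927) and to the other subarray of their own slides. The single S-Lap value left out was that of S-Lap7 on 7b, 1.23 as deposited. With it, the ratio of S-Lap7 was -0.29 and not called (limma, adjusted p = 0.616), and with its sign turned it was -1.06. Scaling the arrays to the same spread gave -0.77, not called (limma, adjusted p = 0.178).

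In ovary over tudor males, S-Lap7 read -1.40 and -0.85, S-Lap8 -1.01 and -0.37, and S-Lap5 -0.14 and 0.004, with a single value of -0.52 for S-Lap2. The fitted ratio of S-Lap7 was -0.95 ± 0.29 (SE, n = 2 arrays; limma, adjusted p = 0.0148), that of S-Lap8 -0.56 ± 0.31 (limma, adjusted p = 0.197), and that of S-Lap5 0.0051 ± 0.24. Again 1 of 3 genes tested was called lower, where 14.1% of all elements were. The call of S-Lap7 was lost without array 19a (-0.68; limma, adjusted p = 0.348), on scaling (-1.08; limma, adjusted p = 0.074) and with the first subarray of 7b and 8b as deposited (-0.90; limma, adjusted p = 0.0952). Without 19a the ratio of S-Lap8 was -0.24, and without 19b it was -0.88. In ovary over tudor females only S-Lap5 was tested, at 0.16 ± 0.24 (SE, n = 2 arrays; limma, adjusted p = 0.699), where 21% of all elements were called in either direction, and the single values of S-Lap7 and S-Lap8 were -0.56 and -0.31.

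By the size of their ratios S-Lap7 and S-Lap8 formed an upper pair, and S-Lap2 and S-Lap5 are taken as the lower pair. In the 8 comparisons in which all 4 were called higher, 23 of 24 arrays held values for all of them. On 23 of 23 the lower of S-Lap7 and S-Lap8 exceeded the higher of S-Lap2 and S-Lap5. The pairs were named from these same ratios and the arrays share RNA sources, so this count only describes the grouping. The median gap between the means of the pairs was 0.95. Within the pairs the order varied. S-Lap7 exceeded S-Lap8 on 16 of 23 arrays, and the size of their difference had a median of 0.19 and reached 0.54. S-Lap2 exceeded S-Lap5 on 14 of 23 arrays, and the size of their difference had a median of 0.26 and reached 0.86. The largest was in males over tudor males, where S-Lap2 lay above S-Lap5 by a mean of 0.70 (SD 0.23, n = 2 arrays). In that comparison S-Lap2 lay below S-Lap8 by a mean of 0.23, and so was nearer to S-Lap8 than to S-Lap5. Duplicate spots of a gene differed by a median of 0.13 to 0.15 on an array. These are differences of ratios, not of levels, and ratios of separate elements can also differ in how far each element registers a given change, which was not tested.

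**Figure D5:**
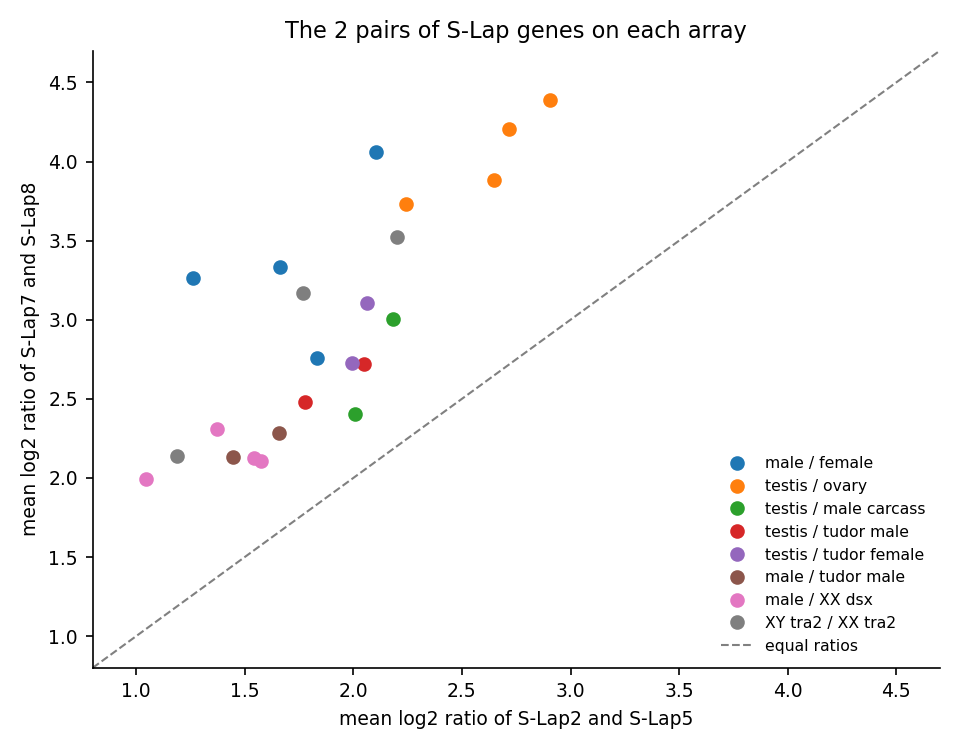
Mean log2 ratio of S-Lap7 and S-Lap8 (vertical axis) against that of S-Lap2 and S-Lap5 (horizontal axis), 1 point per array for the 23 arrays with all 4 values, coloured by comparison, with the line of equal ratios dashed. All 23 points lie above the line, with a median gap of 0.95. The pairs were named from these same ratios.

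The distance within the family varied between comparisons. S-Lap5 lay below S-Lap7 by 2.02 (SD 0.66, n = 4 arrays) in males over females, by 1.47 (SD 0.14, n = 4) in testis over ovary and by 0.47 (SD 0.04, n = 2) in testis over male carcass. S-Lap2 lay below S-Lap7 by 1.52, 1.47 and 0.66 in the same comparisons. In ovary over tudor males, where the male RNA is the second, S-Lap5 lay above S-Lap7 by 1.05 (SD 0.29, n = 2 arrays). Read as tudor males over ovary, S-Lap7 is thus again the higher. S-Lap7 and S-Lap8 had the most similar profiles of the 6 pairs of genes. Over the 12 comparisons in which both were tested, their fitted ratios had Pearson's r of 0.993 and Spearman's rho of 0.979. The other pairs of genes had Pearson's r from 0.865 to 0.956 over 9 to 11 comparisons. The lowest was that of S-Lap2 with S-Lap5, whose 9 shared comparisons all had positive ratios, and the highest that of S-Lap2 with S-Lap7. The sets of comparisons thus differ between pairs. By root mean square difference of ratios, S-Lap2 and S-Lap5 were the nearest pair after S-Lap7 and S-Lap8 (0.34, against 0.89 to 1.11 for the remaining pairs). The comparisons share RNA sources and the genes share arrays, so these correlations describe the profiles only. Spotted fragments of related genes can bind each other's transcripts, and this was not tested.

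Testis over ovary could also be reached through other arrays. Testis over tudor males minus ovary over tudor males gave 3.79 for S-Lap7, 3.21 for S-Lap8 and 1.74 for S-Lap5, against 4.09, 4.01 and 2.63 measured directly. Through the carcasses (testis over male carcass, plus male over female carcass, minus ovary over female carcass) it came to 5.01 for S-Lap7, 4.61 for S-Lap8 and 2.87 for S-Lap2. The tudor route thus lay below the direct ratio and the carcass route above it for each S-Lap gene with a value, by 0.24 to 0.91. Over all elements the median size of such a difference was 0.21 for the tudor male route and 0.15 for the carcass route. Most of those elements have smaller ratios, as the S-Lap genes ranked 19 to 379 from the top of 13091 in testis over ovary. Elements of like ratio were not compared.

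Genes with profiles most like those of the S-Lap genes included known sperm genes. Likeness was the root mean square difference of log2 ratios over the comparisons in which the S-Lap gene was tested, among 7051 to 7401 other genes. The 5 nearest to S-Lap7 over 12 comparisons were CG31948 (0.24), Mst98Cb, a sperm tail protein gene (0.25), Mst77F, a sperm chromatin protein gene (0.28), Mst87F (0.29) and CG10252 (0.29). The median candidate was at 2.56 from S-Lap7, and S-Lap8 itself was at 0.24. Nearest to S-Lap8 were Ppi1, CG4836 and CG31948 (0.25 each), Mst77F and CG8701 (0.27 each). CG31948 and Mst77F were thus on both lists. Pearson's r for these genes ran from 0.982 to 0.998.

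The other pair had other neighbours by profile. Nearest to S-Lap2 over 10 comparisons were CG18662 (0.12), CG3124 (0.16), CG13245 (0.18), Rab3-GAP (0.19) and ProtB, a protamine-like sperm chromatin gene (0.20). Nearest to S-Lap5 over 12 comparisons were CG8043 (0.13), CG4546 (0.16), CG3552 (0.17), CG13088 and CG15631 (0.17 each). S-Lap5 lay at 0.34 from S-Lap2, and S-Lap7 at 0.96 from S-Lap2, farther than any of these 5.

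Other sperm genes were counted from lists of known roles. In males over females 26.5% of all elements were called higher. Of 20 sperm tail and mitochondrial derivative genes, 18 were called higher there and 0 lower (median 2.03, against -0.0032 over all elements tested). S-Lap7 and S-Lap8 lay above that median, S-Lap2 was near it and S-Lap5 below it. In testis over ovary 30.9% of all elements were called higher. Of the same 20 genes, 19 were called higher there (median 2.99, against -0.0039 over all elements). They included bb8, which acts in the mitochondrial derivatives, at 3.50, Porin2, a mitochondrial channel, at 1.99, and fzo, which fuses spermatid mitochondria, at 1.56. The exception was knon at 0.12 (limma, adjusted p = 0.328). In tudor males over tudor females 0 of 14 were called (median 0.19), where 1.03% of all elements were called in either direction. Of 5 sperm chromatin genes 5 were called higher in males and 5 in testis over ovary, with tHMG2 at 3.84. Regulators of the testis transcription programme were tested in few cases, with 4 of 5 called higher in testis over ovary (median 0.46). Markers of testis somatic cells showed 0 of 4 called there by limma (median 0.01). Of 9 early male germline and meiosis genes, 4 were called higher and 4 lower in testis than in ovary, where 30.9% of all elements were called higher and 33.4% lower. Of these 9 genes, 4 were called higher in testis than in tudor males, where 14.9% of all elements were.

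The other M17 aminopeptidase gene tested, grsm, was called higher in 6 of the 8 comparisons in which all 4 S-Lap genes were. In males over females it was at 0.18 (limma, adjusted p = 0.277), in males over tudor males at 0.48 (limma, adjusted p = 0.178) and in male over female carcass at -0.21 (limma, adjusted p = 0.386). It was called higher in testis than in ovary at 1.07, than in male carcass at 2.03, than in tudor males at 1.37 and than in tudor females at 1.39. It was called higher in males than in XX dsx flies at 0.71 and in XY than in XX tra2 flies at 0.98. It was also called higher in ovary than in tudor males at 1.07, than in tudor females at 1.00 and than in female carcass at 0.78. The differences between grsm and the S-Lap genes were not tested.

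Of 6 tested genes that neighbour or overlap an S-Lap gene in RefSeq, 0 were called higher in testis than in ovary by limma. Over all elements tested 30.9% were called higher and 33.4% lower, and 6 genes are too few to be told apart from these shares. GAPsec, which overlaps S-Lap2, was called lower in testis than in ovary at -1.04, and Zasp66, on the other side of S-Lap2, was at 0.21 (limma, adjusted p = 0.524). S-Lap1 is the other neighbour of S-Lap2. Whether the element of S-Lap2 also registers transcripts of the overlapping gene was not tested. Beside S-Lap5, fand was called lower in testis at -0.22. Beside S-Lap7, CG6280 was at 0.31 and Cpr50Cb at 0.27, neither called, and Cpr50Ca, which overlaps it, was not tested. Beside S-Lap8, knon was at 0.12.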

How the data were processed

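The authors deposited 1 log ratio per spot (31464 spots, 46 arrays), taken as log2. How they corrected background, normalized and filtered is not given in the sources used here. Per the labels' protocols, poly(A) RNA (200 ng) was labelled with Cy3 or Cy5 and slides were scanned on a GenePix 4000A. Duplicate spots were averaged to 15732 elements, 12586 of them with 1 gene, 73 with several and 3073 with none in the platform table. RefSeq matched 12106 and changed 0 symbols. Arrays were centred on their medians. All 44 arrays were fitted with limma 3.58.1 (R 4.3.3), with 1 coefficient per comparison and a dye coefficient, arrays taken as independent, and at least 2 arrays per element and comparison. The SE draws on 1 moderated variance per element over all comparisons (4.11 prior degrees of freedom). Calls needed a Benjamini-Hochberg adjusted p below 0.05. The first-subarray values of arrays 7b and 8b (9626) were left out of the fit. Every S-Lap gene is named, up to 4 genes per list are examples, and the 5 nearest profiles were searched over comparisons in which the S-Lap gene was tested, since none was tested in all 15. The members and lists were chosen with earlier results of these data known. Alternatives are given in the closing section. The fit was tested on simulated data with known changes.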

Additional observations from a re-analysis of the deposited data

Results flagged for a closer look

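The ratio of males over females differed between whole flies and carcasses for S-Lap7 (2.07), S-Lap8 (1.79), S-Lap2 (1.35) and S-Lap5 (0.87), each by a direct test of the difference. It differed between whole flies and germline-less tudor flies for S-Lap7 (2.73), S-Lap8 (2.64) and S-Lap5 (1.28). The differences from scaled arrays are given in the report, and the part of array spread in them was not tested.

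On the 2 arrays that carried mixed-sex RNA in both channels, S-Lap8 stood apart once. On array 27a its duplicate spots read -1.53 and -1.55 (channel 1 over channel 2 as taken here), -1.54 after centring, and 11 of 12486 elements were lower. The first percentile of that array was -0.51. On array 27b S-Lap8 read 0.19. S-Lap2, S-Lap5 and S-Lap7 lay between -0.01 and 0.27 on both arrays. No comparison uses these arrays, and the cause was not tested.

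Dixon's criterion was applied to the 15 sets of 4 values of 1 S-Lap gene in 1 comparison, and in none did an array stand apart. Sets of 2 or 3 values were not tested.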

How the results depend on the processing

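Over 53 S-Lap results and 723 alternative values, 694 kept direction and call, 19 lost a call, 4 gained one and 6 changed sign. Outside scaling, 655 of 670 kept both. The fits used a dye term or none, a random block, centring, single duplicate spots, complete elements, own arrays, the first subarray of 7b and 8b, and 1 array left out. Scaling to the same spread gained calls for S-Lap5 in carcasses (0.73) and for S-Lap5, S-Lap8 and S-Lap7 in tudor flies (0.70, 1.91 and 2.40). It lost S-Lap7 in ovary over female carcass (-0.77) and over tudor male (-1.08), and the whole-fly differences from carcass (0.26, 0.43, 0.65 and 0.62 for S-Lap5, S-Lap8, S-Lap7 and S-Lap2) and tudor (0.30 for S-Lap5, 0.28 for S-Lap8, and -0.044, turned, for S-Lap7). S-Lap5 in ovary over tudor male, never called, went to -0.048 on scaling, -0.068 without the dye term and on its own arrays, and -0.014 uncentred. With 7b and 8b as deposited, S-Lap7 lost calls in ovary over female carcass (-0.29) and over tudor male (-0.90). On their own arrays, calls were lost for S-Lap8 (1.44) and S-Lap7 (1.42) in carcasses, S-Lap5 in whole minus carcass (0.87), and S-Lap5 (1.07), S-Lap8 (2.40) and S-Lap7 (2.56) in whole minus tudor. This fit was not run for testis over male carcass, male over tudor male and female over tudor female, which leave no residual degrees of freedom. With 1 array left out, S-Lap5 ranged from 0.74 to 1.10 in whole minus carcass, 1.15 to 1.26 in male over tudor male and -0.067 to 0.077 in ovary over tudor male, and S-Lap7 from -1.23 to -0.68 in ovary over tudor male. The causes were not tested. Counts of called elements moved on scaling from 1651 to 2760 in carcasses, 879 to 2994 in male over tudor male, 2949 to 4600 in male over XX dsx, 118 to 2802 in tudor flies, 1959 to 3046 in XY over XX tra2 and 3793 to 1516 in whole minus carcass. The share called higher moved from 84.3% to 58.1% in male over tudor male, 78.8% to 50.5% in tudor flies and 79.4% to 65.7% in XY over XX tra2. On own arrays the counts fell from 7006 to 3824 in male over female, to 87 in carcasses and from 2504 to 408 in whole minus tudor. With 1 array left out, they fell as low as 664 in carcasses, 44 in tudor flies, 1336 in testis over tudor male and 363 in male over tudor male. No paired analysis was possible because the groups share no replicate numbers. The number of arrays limits each value, and probe brightness over background was not used here.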
